A study of Caenorhabditis elegans with 2 samples.

Results

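Cytosolic ribosomal protein genes were taken as the protein-coding genes of the Ensembl WBcel235 annotation whose symbol starts with rpl- (large subunit) or rps- (small subunit). The rule gave 78 of 19973 protein-coding genes, 47 of the large and 31 of the small subunit. It goes by symbol alone, and the role of each gene was not checked, so genes of other roles may be included. The measurement was chromatin immunoprecipitation followed by sequencing (ChIP-seq) of the protein of gene F10E7.11 in whole Caenorhabditis elegans. The strain, OP658, carries the transgene wgIs658, which makes F10E7.11 with GFP and FLAG at its C-terminal end, and the mutation unc-119(tm4063) III. Mixed-sex animals were collected as young adults, 63 hours after release of synchronised starved L1 larvae, sonicated, and precipitated with anti-GFP, per the sample description; the antibody entry names F10E7.11 itself. All samples belonged to 1 group of 2 biological replicates. There was no second condition, the control library the authors used in calling was not analysed here, and whole animals do not show in which tissue a region was bound. The promoter that drives the transgene is not given in the sources used here.

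Each cytosolic ribosome has a large subunit, which joins amino acids and holds the exit tunnel for the new chain, and a small subunit, which reads the mRNA. Their proteins are needed in near-equal amounts, so cells regulate these genes together, and growing germ cells and embryos make many ribosomes. In C. elegans many mRNAs receive a spliced leader, so that an annotated 5′ end can lie downstream of the true start of transcription, and some ribosomal protein genes carry small nucleolar RNA (snoRNA) genes, whose products guide rRNA modification, in their introns.

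The authors deposited a list of 18286 candidate regions called on the pooled replicates and a list for each replicate. They also deposited 575 peaks that passed their irreproducible discovery rate (IDR) filter. These IDR peaks were the 575 strongest regions of the pooled list by signal. A gene was counted where a region's summit lay no more than 500 bp before or 100 bp after 1 of its annotated 5′ ends; distances are negative upstream. By this count 11 ribosomal protein genes had an IDR peak in the promoter, 7 of the large and 4 of the small subunit. With a narrower window, from 250 bp before to 50 bp after the 5′ end, the count was 3 (2 large, 1 small). In order of pooled signal the 11 genes were rpl-3, rpl-15, rpl-20, rpl-35, rps-26, rps-1, rpl-24.2, rpl-12, rps-19, rps-16 and rpl-11.2. The other 67 had none.

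The sequences under the summits are shown because short words recur in them. Each line gives up to 100 bases centred on the IDR summit, from the WBcel235 reference (RefSeq; the same assembly as ce11), 5′ to 3′ on the strand of the gene. Capitals mark 4 words of 6 bases as read on either strand: the word CACTCG, the word GACGCA, the word TACGGT and the word GGAGCG. The words TACGGT and GGAGCG were picked from these sequences after they had been read. The windows of 3 of the 11 peaks, rps-26, rps-19 and rps-16, hold none of the 4 words and are not shown; nor is that of rpl-24.2, which holds CACTCG and GACGCA. The rpl-12 line stops at the annotated 5′ end.
rpl-3, chrIII:3867521-3867620, plus strand: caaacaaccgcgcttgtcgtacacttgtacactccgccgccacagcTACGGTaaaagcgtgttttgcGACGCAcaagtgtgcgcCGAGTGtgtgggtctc
rpl-15, chrIV:654876-654975, minus strand: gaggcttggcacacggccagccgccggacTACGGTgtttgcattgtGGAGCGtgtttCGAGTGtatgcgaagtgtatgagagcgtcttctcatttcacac
rpl-20, chrIV:4750033-4750132, minus strand: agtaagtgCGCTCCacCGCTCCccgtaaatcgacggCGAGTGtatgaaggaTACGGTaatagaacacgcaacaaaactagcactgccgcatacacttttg
rpl-35, chrIII:7854662-7854761, plus strand: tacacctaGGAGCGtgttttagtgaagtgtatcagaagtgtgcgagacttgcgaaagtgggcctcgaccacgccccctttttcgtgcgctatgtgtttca
rps-1, chrIII:4475597-4475696, plus strand: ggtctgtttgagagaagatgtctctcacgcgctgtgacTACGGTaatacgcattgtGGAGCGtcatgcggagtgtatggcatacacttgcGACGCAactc
rpl-12, chrIV:13240652-13240735, minus strand: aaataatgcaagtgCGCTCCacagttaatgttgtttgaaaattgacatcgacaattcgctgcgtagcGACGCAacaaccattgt
rpl-11.2, chrX:2242913-2243012, minus strand: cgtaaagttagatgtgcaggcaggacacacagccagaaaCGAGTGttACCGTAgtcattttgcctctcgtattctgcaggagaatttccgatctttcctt

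TACGGT was in the summit window of 5 of the 11 member peaks, and GGAGCG in 5. CACTCG was also in 5 and GACGCA in 4. Over the 174 IDR summit windows in promoters, these 11 included, TACGGT was in 14 (8.05%), GGAGCG in 16 (9.20%), CACTCG in 19 (10.9%) and GACGCA in 26 (14.9%). At 26 ribosomal protein genes with a pooled promoter region and no IDR peak, TACGGT was in 8 summit windows (30.8%). There GGAGCG was in 1 (3.85%), CACTCG in 2 (7.69%) and GACGCA in 3 (11.5%). The TACGGT copy was centred -1.5 bp from the summit at rpl-3, 0.5 bp at rpl-11.2, 4.5 bp at rpl-20, -9.5 bp at rps-1 and -17.5 bp at rpl-15. The copy nearest to the rpl-24.2 summit was 130.5 bp away. TACGGT and GGAGCG were picked from windows around these summits. Their counts at the 11 peaks and the closeness of the 5 TACGGT copies are thus part of how they were chosen. CACTCG and GACGCA were already known from earlier results of these data. The contrasts with summit windows and promoters that have no peak, given here and next, have the same limits.

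The words were not limited to the ribosomal protein promoters with a peak. Across promoters of 600 bp, TACGGT was in 46.2% of the 78 ribosomal protein promoters against 15.98% of all promoters. It was in 6 of the 11 ribosomal protein promoters with an IDR peak and in 30 of the 67 without. GGAGCG was in 23 of the 78 (29.5%) against 9.66% of all, and CACTCG in 23 (29.5%) against 11.3%. With a peak, 6 of 11 ribosomal protein promoters held GGAGCG and 6 of 11 held CACTCG; without a peak both words were in 17 of 67. GACGCA was in 5 of 11 with a peak and 11 of 67 without, against 15.1% of all promoters. ACGCAG, which overlaps GACGCA by 5 bases, was in 3 of 11 with a peak, 21 of 67 without and 14.4% of all. TATAAA, the core of the TATA box, was in 3 of 11 with a peak, 40 of 67 without and 11592 of all 19973 promoters. The other words searched were CTGCGC and, overlapping it by 5 bases, CCTGCG, each in 0 of 11 with a peak and 11 of 67 without, against 7.42% and 6.39% of all. The word CGAGAG was in 3 of 11, 15 of 67 and 17.4% of all, and the word GAGAGA in 7 of 11, 26 of 67 and 33.9% of all. A match is a description of the letters and not a binding site. The summit windows of the 11 peaks had a median G+C of 51%, against 47% for all 575 IDR windows; the part of base composition in the word counts was not tested.

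The IDR peaks at ribosomal protein promoters were 14.1% of the 78 genes (exact 95% interval 7.26% to 23.8%), where 0.986% of all protein-coding genes had such a peak. For the large subunit the share was 14.9% (6.20% to 28.3%) and for the small subunit 12.9% (3.63% to 29.8%), and the intervals overlap. These intervals cover the number of genes only. They treat genes as independent and hold no term for differences between the 2 replicates. Read depth is unknown from these files. The 575 strongest regions of each replicate, taken alone, gave 9 ribosomal protein genes in replicate 1, where 1.06% of all genes were reached, and 10 in replicate 2, where 0.961% were. The count was thus close to 11 in either replicate.

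**Figure D1:**
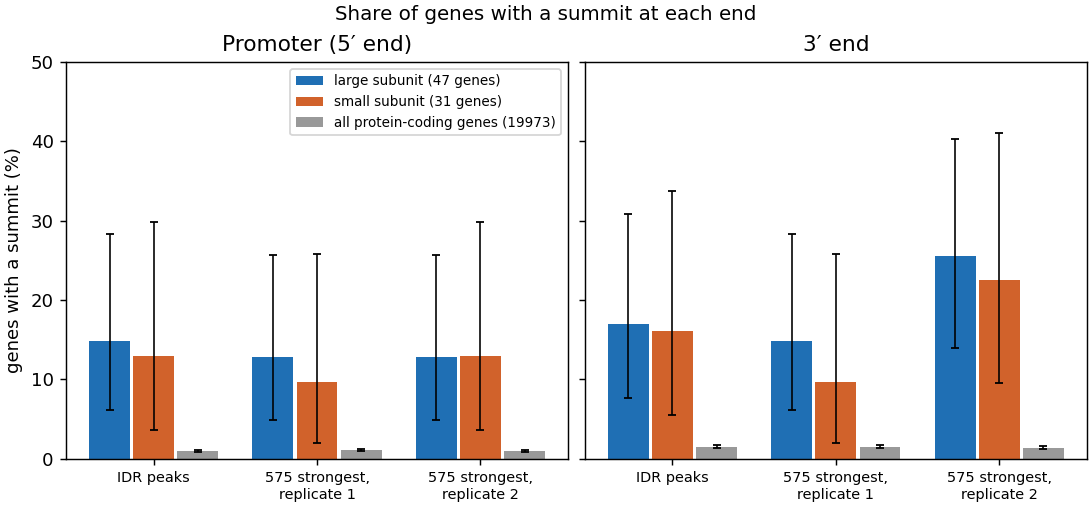
Share of genes (%, linear axis from 0) with a summit in the promoter (left) or at the 3′ end (right), for the IDR peaks and for the 575 strongest regions of each replicate. Bars are the large subunit, the small subunit and all protein-coding genes, with exact 95% intervals; at both ends both subunits lie above all protein-coding genes, and their intervals overlap each other.

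Candidate regions included many of lower signal. A pooled candidate region lay in 37 ribosomal protein promoters (47.4%) where 16.9% of all genes had one, and 41 had none; with the narrower window 9 had one. They were 18 of 31 small-subunit genes (58.1%, 39.1% to 75.5%) and 19 of 47 large-subunit genes (40.4%, 26.4% to 55.7%), and the intervals overlap. The genes rpl-24.1 and rps-10 shared a region, as did rpl-36 and rps-14, so these regions count in both subunits. With a deposited q-value under 0.05 the counts were 17 of 78 in all, where 1.81% of all genes passed, with 9 of 31 small-subunit (14.2% to 48.0%) and 8 of 47 large-subunit genes (7.65% to 30.8%), again with overlapping intervals. Replicate 1 had a candidate region in 38 ribosomal protein promoters (17% of all genes) and replicate 2 in 39 (19.8% of all genes). The candidate lists hold background regions by design, and 29 of the 78 promoters had no region in the pooled list or in either replicate's. Among genes with a pooled candidate region, 11 of 37 ribosomal protein genes had an IDR peak, where 5.83% of all such genes did. They were 7 of 19 in the large and 4 of 18 in the small subunit.

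The strongest promoter peak of the large subunit was at rpl-3, whose protein reaches toward the site of peptide bond formation. It lay at chrIII:3867465-3867680 with a pooled signal of 518, which was rank 5 of all pooled regions. Its signal was 367 in replicate 1 and 155 in replicate 2, and each was rank 5 of its own list. Signals are the authors' own values on a different scale in each list, so values are compared by rank. Replicate 1 has 18116 regions and replicate 2 has 25275, so equal ranks are not equal percentiles. For rpl-3 the ranks were equal in all 3 lists.

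The next peaks belonged to large-subunit genes as well. At rpl-15 (chrIV:654870-655000, summit at -350 bp) the pooled signal was 342 at rank 26, with 239 at rank 33 in replicate 1 and 91.9 at rank 47 in replicate 2. At rpl-20 (chrIV:4749865-4750300, -305 bp) it was 314 at rank 42, with 206 at rank 67 in replicate 1 and 106 at rank 23 in replicate 2. At rpl-35 (chrIII:7854494-7854929, -422 bp), whose protein sits near the mouth of the exit tunnel, it was 284 at rank 65, with 180 at rank 107 in replicate 1 and 99.9 at rank 32 in replicate 2. All of these were among the 575 strongest regions in each replicate, with rpl-15 higher in replicate 1 and rpl-20 and rpl-35 higher in replicate 2 by rank.

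The remaining large-subunit peaks were weaker. At rpl-24.2 (chrI:9669030-9669465, -167 bp) the pooled signal was 237 at rank 119, with 147 at rank 235 in replicate 1 and 78.6 at rank 90 in replicate 2; the summit lay in an intron of the gene C03D6.1. At rpl-12 (chrIV:13240468-13240903, -35 bp), which encodes a protein of the base of the stalk, it was 215 at rank 165, with 151 at rank 198 in replicate 1 and 67.1 at rank 163 in replicate 2. At rpl-11.2 (chrX:2242745-2243180, -345 bp) it was 166 at rank 454, with 109 at rank 665 in replicate 1 and 44.0 at rank 1098 in replicate 2. This last peak lay outside the 575 strongest regions of both replicates, and its q-value in replicate 2 was 0.0651.

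Of the small-subunit genes, rps-26, whose protein lies near the mRNA exit channel, had the strongest pooled peak (chrI:14759310-14759745, -402 bp; 282, rank 68). Its replicates were far apart, with 225 at rank 46 in replicate 1 and 51.8 at rank 513 in replicate 2, the top 0.254% and 2.03% of their lists. At rps-1 (chrIII:4475429-4475864, -271 bp) the pooled signal was 263 at rank 81, with 190 at rank 82 in replicate 1 and 72.4 at rank 120 in replicate 2. The rps-1 summit lay in the noncoding RNA genes F56F3.10 and F56F3.11. At rps-19 (chrI:9625821-9626256, -243 bp), a gene whose human counterpart is mutated in Diamond-Blackfan anaemia, it was 206 at rank 194, with 133 at rank 333 in replicate 1 and 76.8 at rank 103 in replicate 2.

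The rps-16 peak (chrV:15000225-15000660) was the exception in position. Its summit lay 98 bp downstream of the 5′ end, in the coding sequence. The pooled signal was 166 at rank 452, with 106 at rank 746 in replicate 1 and 61.0 at rank 251 in replicate 2. The same summit lay 208 bp past the 3′ end of fib-1, the gene of fibrillarin, an rRNA methyltransferase of the nucleolus. The annotated 5′ end of rps-16 thus lies just past the 3′ end of fib-1. Whether that 5′ end is a start of transcription was not tested.

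**Figure D2:**
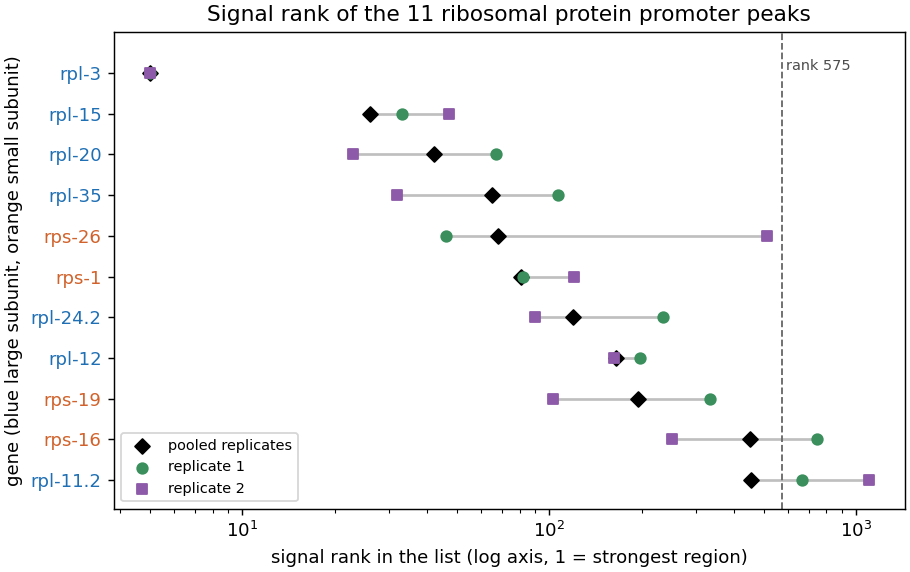
Signal rank (log axis, 1 is the strongest region) of the 11 ribosomal protein promoter peaks in the pooled list and in each replicate, 1 line per gene. The dashed line marks rank 575; rpl-3 stands at rank 5 in all 3 lists, rps-26 has the longest line, from 46 to 513, and rps-16 and rpl-11.2 pass the line.

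All 11 peaks were in the top 4.12% of replicate 1 and the top 4.34% of replicate 2. Each had a summit within 100 bp in both replicates, and the replicate summits lay 0 to 49 bp apart, with a median of 20 bp. Across the 11 genes the Spearman correlation between replicate signals was 0.573, and across the 28 ribosomal protein genes with a promoter region in both replicates it was 0.801. These correlations are descriptions over genes that share the same 2 libraries. They use each replicate's strongest region in the promoter, which need not be the same region. At rpl-39, for example, the replicate summits lay 371 bp apart. The genes rpl-36 and rps-14 share a region and enter with the same values.

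The peaks ranked high and lay far upstream of the annotated 5′ ends. Their median pooled rank was 81 and median signal 263, where the 197 genes with an IDR promoter peak had a median rank of 238 and signal of 197. The median summit was at -283 bp, with -305 bp for the large and -257 bp for the small subunit, against -167 bp for all 197 genes. In 8 of 11 the summit was 200 bp or more upstream, against 84 of 197 (42.6%). The strongest pooled regions of the 37 genes with one had a median of -298 bp, against -154 bp for all genes. Over all 37 the distance was thus about as long as in the IDR peaks among them.

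**Figure D3:**
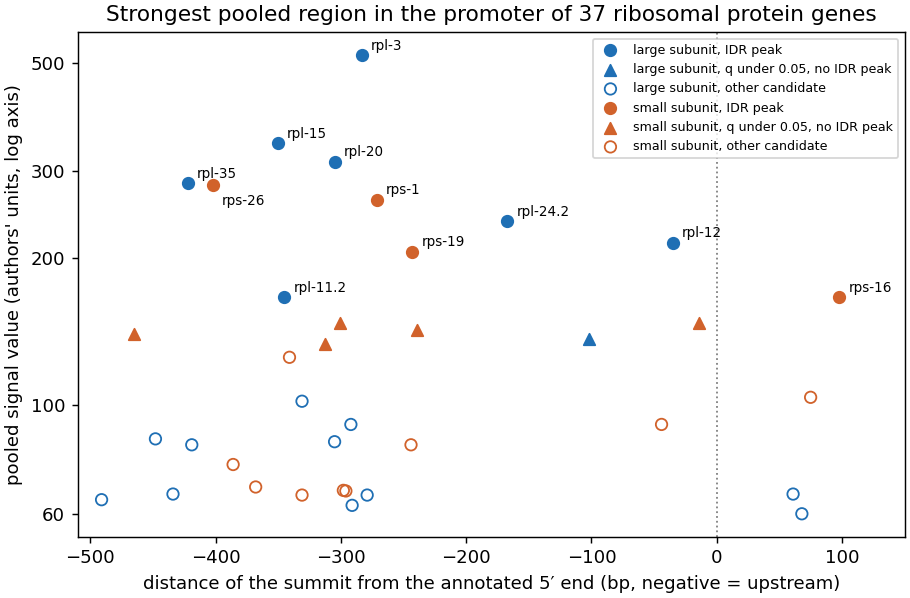
Distance of the summit from the annotated 5′ end (bp, linear axis) against pooled signal (authors' units, log axis) for the strongest pooled region of 37 ribosomal protein promoters, by subunit and class. The summit lies 200 bp or more upstream at 28 of the 37, and rps-16 is the IDR peak downstream of the annotated 5′ end.

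Promoters below the IDR list differed in how the replicates ranked them. The first 3 by pooled signal were rps-12 (147, rank 677), rps-2 (147, rank 689) and rps-20 (143, rank 771), and rps-28 (140), rpl-7A (137) and rps-24 (134) also had a q-value under 0.05. Only rpl-7A of these 6 is a large-subunit gene. In replicate 1 they ranked from 598 at rps-20 to 816 at rps-12. In replicate 2 rps-12 ranked 1164, and the others from 5518 at rps-28 to 7582 at rpl-7A. These are ranks of each replicate's strongest region in the promoter. At rps-24 that region differed, with replicate summits 153 bp apart, so its rank of 5692 in replicate 2 is not that of the pooled region. The IDR list ended at a signal of 155, just above rps-12. At the other 20 genes with a pooled region, ranks ran from 1219, at rps-15, to 15451. Both replicates had a summit within 100 bp at 10 of these 20 genes.

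Many of the peaks could belong to a neighbour. At 6 of the 11 the summit also lay in the promoter of another protein-coding gene, against 26 of the 174 IDR summits in promoters. The partners were K11H12.8 at rpl-15, Y17G9B.5 at rpl-20, tmem-107, a gene of the base of the cilium, at rps-26, ifet-1, an eIF4E-binding repressor of translation, at rps-1, lin-54, a DNA-binding subunit of the DREAM complex, at rpl-12, and hsr-9 at rps-19. Ribosomal protein genes often have such a neighbour: 47 of 78 (60.3%) had an opposite 5′ end within 1000 bp upstream, against 18.7% of all protein-coding genes. This held for 6 of 11 genes with an IDR peak and 41 of 67 without. When peaks in another gene's promoter were left out, a choice made after seeing the data, 5 remained: rpl-3, rpl-35, rpl-24.2, rps-16 and rpl-11.2. Which gene of a pair a region acts on cannot be told apart from positions.

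Introns of 13 ribosomal protein genes (8 large, 5 small) held 19 of the 346 annotated snoRNA genes. Of these hosts rpl-15 alone had an IDR promoter peak, 1 of 13, against 10 of the other 65. Its snoRNA genes K11H12.12 and K11H12.13 lay 896 bp and 565 bp from the summit. A pooled candidate region lay in the promoter of 6 of 13 hosts and 31 of 65 others. The other hosts with one were rpl-24.1, rpl-7A, rps-12, rps-13 and rps-23, and those without were rpl-2, rpl-26, rpl-4, rpl-6, rpl-7, rps-29 and rps-4. The candidate shares of hosts and other genes were thus close.

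The snoRNA genes themselves were compared with those outside ribosomal protein genes. No IDR summit lay within 250 bp of any of the 19 hosted snoRNA genes, against 50 of the 327 others. The 19 are few and lie in 13 host genes, and this difference was not tested. In the pooled list 10 of 19 had a summit within 250 bp, against 149 of 327. In replicate 1 the counts were 7 of 19 and 141 of 327, and in replicate 2 they were 6 of 19 and 161 of 327. Of the 11 peaks, only that of rps-26 had a snoRNA gene within 250 bp, F39B2.14 at 116 bp, against 9 of the 174 IDR summits in promoters (5.17%).

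The 3′ ends of the ribosomal protein genes were examined after the promoter results had been seen. An IDR summit lay from 100 bp inside to 500 bp past the 3′ end of 13 of the 78 genes (16.7%, 9.18% to 26.8%), where 1.53% of all protein-coding genes had one. They were 8 of 47 large-subunit and 5 of 31 small-subunit genes. The strongest was 144 bp past the end of rps-6, whose protein in mammals is phosphorylated by the growth signalling kinase S6K, with a pooled signal of 292 at rank 55. It ranked 60 in replicate 1 and 65 in replicate 2. The peak 80 bp past rpl-3 had 263 at rank 80, with ranks 73 and 210 in replicates 1 and 2. The peak 144 bp past rpl-4, which encodes a protein of the exit tunnel, had 245 at rank 105, with ranks 131 and 108.

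The other 10 ranked from 147 to 574 in the pooled list and followed rpl-27, rps-25, rpl-43, rps-19, rpl-17, rpl-7, rpl-12, rpl-31, rps-20 and rps-27. Over the 13, the summit lay 75 bp to 422 bp past the 3′ end, with a median of 231 bp. Of these, rpl-3, rps-19 and rpl-12 (3 of 13) had a peak at both ends. At 2 of the 13 a replicate had no summit within 100 bp: replicate 2 at rpl-12 and replicate 1 at rps-27. At rps-19 the replicate ranks were 158 and 3251. At 4 of the 13 the summit also lay in the promoter of a neighbour: rpl-27 (egl-30 and C53H9.4), rps-25 (inx-7), rpl-43 (xrn-2) and rpl-12 (tag-115). Counting only summits in no protein-coding promoter gave 9 of 78 (11.5%), against 1.09% of all genes. Among these 9, the summits at rps-6 and rps-27 were intergenic. Those at rpl-4, rpl-17 and rps-20 lay in the coding sequence of another gene, and that at rpl-7 in an intron of F53G12.9. Those at rpl-3 and rps-19 lay in the 3′ untranslated regions of tir-1 and T05F1.2, and that at rpl-31 in the noncoding RNA gene linc-1.

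The replicates' counts were further apart at the 3′ ends than at the promoters. Among the 575 strongest regions, replicate 1 reached the 3′ end of 10 ribosomal protein genes, where 1.5% of all genes were reached, and replicate 2 reached 19, where 1.4% were. A pooled candidate region lay at the 3′ end of 57 of 78 (73.1%), against 18.1% of all genes, which exceeds the 37 with one in the promoter. At least 1 end had a pooled region in 68 of 78 (87.2%), against 29.2% of all genes, and an IDR summit in 21 of 78 (26.9%), against 2.43%. Ribosomal protein genes are short, with a median length of 753.5 bp against 2027 bp for all protein-coding genes, so a summit far inside one end is near the other.

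**Figure D4:**
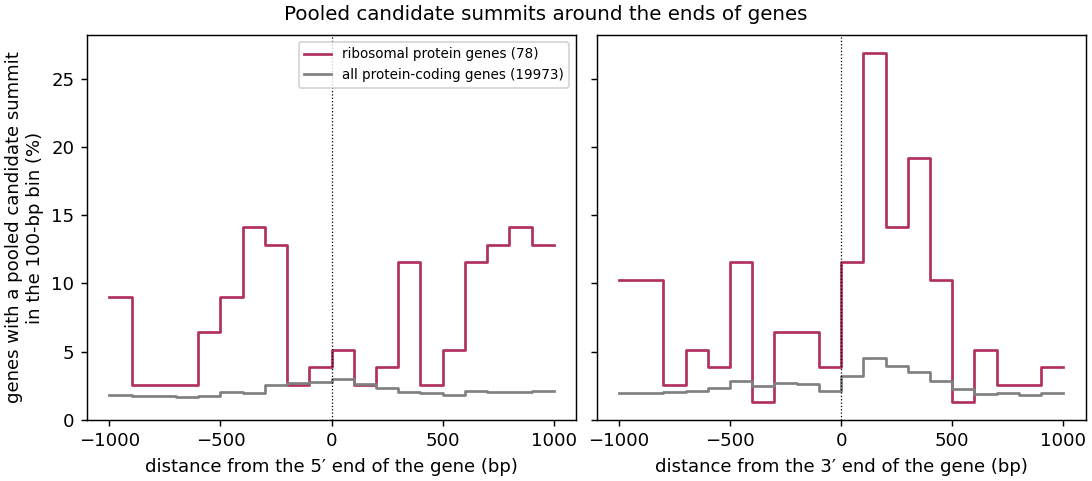
Percent of genes with a pooled candidate summit in each 100-bp bin from 1000 bp before to 1000 bp after the 5′ end (left) and 3′ end (right) of the gene, for the 78 ribosomal protein genes and all 19973 protein-coding genes. The ribosomal protein line reaches 14.1% between 400 bp and 300 bp before the 5′ end, and again between 800 bp and 900 bp after it, and 26.9% between 100 bp and 200 bp past the 3′ end, where all genes are at 1.99%, 2.02% and 4.53%.

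Other genes of ribosome production and translation were counted in the same way, beside the shares of all protein-coding genes given above: 0.986% with an IDR promoter peak, 1.81% with a pooled promoter region of q under 0.05, and 1.53% with an IDR summit at the 3′ end. The lists were made by symbol and not curated gene by gene. The assembly list may hold genes of other roles, such as ebp-2 and emb-5, and neither of these had a pooled promoter region. None of 5 ribosomal protein genes under other symbols (rla-0, rla-1, rla-2, ubl-1 and ubq-2) had an IDR promoter peak, nor did the ribosome-bound scaffold rack-1. Of 70 mitochondrial ribosomal protein genes 2 did, mrpl-32 (242, rank 111) and mrpl-41 (176, rank 353). Of 39 genes of ribosome assembly and rRNA synthesis 4 did: rpac-19, a subunit shared by RNA polymerases I and III (283, rank 66), pro-1 (228, rank 136), imp-3 (212, rank 175) and the exoribonuclease gene xrn-2 (210, rank 179). None of 6 elongation factor genes did, but eef-1A.2 (138) and eef-2 (134) had a pooled region with q under 0.05. At the 3′ end an IDR summit was found for 0 of 70 mitochondrial ribosomal protein genes (exact 95% upper bound 5.13%), 2 of 39 assembly genes (nola-3 and fib-1), 0 of 6 elongation factor genes and 1 of 5 ribosomal protein genes under other symbols (rla-0). The fib-1 summit is the one in the rps-16 coding sequence, and the xrn-2 promoter peak is the one past the 3′ end of rpl-43.

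The genes with a promoter peak lay on every chromosome but II, in counts too small to compare chromosomes. By chromosome they were 3 of 23 on I, 0 of 10 on II, 3 of 18 on III, 3 of 17 on IV, 1 of 8 on V and 1 of 2 on X.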

How the data were processed

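The deposited ce11 region lists hold a signal value, a −log10 q-value and a summit per region, as the authors' peak caller gave them; a control library was used in calling, per the deposited file lists. For the aligner, the caller, their versions and the IDR cut-off, the value was not given in the sources used here; read depth is unknown. All 575 IDR peaks are in the pooled list at equal ranks, so they are its 575 strongest regions by signal. Lists in ce10 were not used.

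Summits were assigned to every protein-coding gene of Ensembl release 115 (WBcel235, the assembly of ce11) with a transcript 5′ end in range. Ranks are by signal within a list, and q-values were recovered from the −log10 values in the deposited lists. Intervals are exact Clopper-Pearson 95% intervals. Words were searched on both strands. No test was made, since the samples form 1 group and genes are not replicates. The assignment was tested on simulated regions. Computations used Python 3.11.15, pandas 2.3.3, numpy 2.4.6, scipy 1.17.1 and matplotlib 3.10.9.

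The genes, lists and words were chosen with earlier results of these data known. Genes named are those with an IDR promoter peak, those below it with q under 0.05, hosts of snoRNA genes, pathway genes with an IDR peak, and neighbours that share a peak; genes named for a 3′ peak were chosen after their values were seen. Of 45 assembly symbols 39 matched the annotation. Alternatives were other windows, 5′ ends, peak sets and single replicates.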

Additional observations from a re-analysis of the deposited data

How the results depend on the processing

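The count of 11 ribosomal protein genes with an IDR promoter peak (7 large, 4 small subunit) was 11 with a window from 1000 bp upstream to 200 bp downstream, with the outermost 5′ end, or with ribosomal proteins of other symbols added. With a window from 250 bp upstream to 50 bp downstream it was 3 (2 large, 1 small), the median rank 165, the median distance -167 bp, and 9 genes had a pooled candidate region in place of 37; no peak then had a snoRNA gene nearby (0) or a host gene (0). Only the nearest 5′ end gave 8 (2 of the small subunit), median rank 100 and 0 peaks near a snoRNA gene. Pooled regions with q under 0.05 gave 17 (9 small), median rank 194 and 3 hosts of snoRNA genes. The 288 strongest IDR peaks gave a median rank of 68. Without peaks in another gene's promoter there were 5 (4 large, 1 small), median rank 119, 0 near a snoRNA gene and 0 hosts. A snoRNA limit of 1000 bp gave 2 peaks. Leaving out a replicate gave counts of 9 to 10, median ranks of 82 to 96.5 and median distances of -301 to -280 bp. Without replicate 1 rpl-11.2 was lost, and without replicate 2 rpl-11.2 and rps-16. The 3′ count of 13 was 14 up to 1000 bp past the end, 8 with the 288 strongest IDR peaks and 20 with q under 0.05; without a replicate it was 10 to 19. The 3′ settings and the set without shared peaks were added after seeing the data. No paired analysis was possible because the samples form 1 group. The unknown read depth limits what the absence of a region shows.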
